A study of Mus musculus with 12 samples.

Results

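Cdh5, Esam, Pecam1, Kdr, Flt1, Tek, Tie1, Emcn, Vegfa and Angpt2 encode proteins of endothelial junctions, of the endothelial surface and of the VEGF and angiopoietin pathways. These 10 genes of 19938 measured genes were chosen by name, with earlier results of these data known. Each had 1 probe set with a single gene symbol in the deposited table, and all 10 were measured. They were followed across 4 groups of 3 mouse arrays each, which were E2 uterus, oil uterus, E2 oviduct and oil oviduct. Estradiol (E2) at 10 µg/kg in sesame oil, or the oil alone (0 µg/kg), had been given under the skin once a day from day 0.5 to day 2.5 of pregnancy. Oviducts and uterine horns were flushed to remove embryos and taken on day 3.5, before implantation, to ask how excess E2 alters both organs. The labels call the 3 samples of a group biological replicates and state no strain, age or pooling of mice. They do not say whether same-numbered uterus and oviduct samples came from the same mice.

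The endothelium lines all blood vessels, and its cells are held together by VE-cadherin (Cdh5) at adherens junctions and by adhesion molecules of the immunoglobulin family such as ESAM and PECAM1. VEGF-A, secreted by many cell types, signals through the receptor VEGFR2 (Kdr), while VEGFR1 (Flt1) binds the same ligand tightly and can act as a decoy. The receptor TIE2 (Tek) and its partner TIE1 stabilise vessels when angiopoietin 1 is bound, and angiopoietin 2 can oppose it. In the rodent uterus, estrogen is known to raise vascular permeability and Vegfa transcription within hours of an acute dose. The tissue measured here was taken a day after the last of several injections.

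Promoter sequences illustrate what the genes hold beside their start sites. RefSeq's table for GRCm38.p6 had an entry for 6 of the 10 genes, namely Kdr, Flt1, Tek, Tie1, Emcn and Vegfa. The 250 bases before each start site were searched on both strands for the letters GGAAG. These are 1 form of the GGAA core recognised by ETS factors, a family that includes the endothelial factors ERG and FLI1. Other forms of that core were neither counted nor marked. Tie1, with 6 matches, and Vegfa, with 1 match, are printed whole, and 30 bases around the match nearest the start site are printed for Kdr, Flt1 and Emcn. Capitals mark GGAAG or its reverse complement CTTCC, and each line runs 5′ to 3′ on the gene's own strand.
Tie1, chr4:118489850-118490099, minus strand: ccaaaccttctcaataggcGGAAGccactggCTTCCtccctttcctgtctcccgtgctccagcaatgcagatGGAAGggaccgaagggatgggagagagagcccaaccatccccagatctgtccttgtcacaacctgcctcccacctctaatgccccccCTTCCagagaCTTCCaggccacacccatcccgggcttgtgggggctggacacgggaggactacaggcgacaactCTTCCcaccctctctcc
Vegfa, chr17:46032378-46032627, minus strand: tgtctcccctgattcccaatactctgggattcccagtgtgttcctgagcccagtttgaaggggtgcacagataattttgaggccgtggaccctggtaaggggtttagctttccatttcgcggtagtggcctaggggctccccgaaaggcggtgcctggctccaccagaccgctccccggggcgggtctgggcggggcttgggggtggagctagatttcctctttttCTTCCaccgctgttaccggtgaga
Kdr, chr5:75978654-75978683, minus strand: ggctacattttaCTTCCaccagaaaccgag
Flt1, chr5:147726046-147726075, minus strand: ggtgccggggtaGGAAGtgggctggggaaa
Emcn, chr3:137340974-137341003, plus strand: gtggctgccaaaGGAAGagagaggaaaaaa
The window of Flt1 held 3 matches, that of Emcn 2, that of Kdr 1 and that of Tek 0. Among all 32851 promoter windows of this length, 64.1% held at least 1 match, so a match is common. The full palindromic estrogen response element, searched with any letter in its spacer and found in 0.0639% of all windows, had 0 matches in these 6 windows. The hypoxia response core ACGTG, found in 16.6% of all windows, also had 0 matches in them. For Vegfa, whose table entry lists a further start site, these counts are for the outer window, and the window of the further site held 1 match to ACGTG. The windows of Kdr, Flt1, Tek and Emcn overlap the annotated gene, while those of Tie1 and the outer one of Vegfa lie outside it.

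The arrays were alike in overall level, with median intensities between 89.5 and 92.9. Hoxa11, a uterine patterning gene, was lower in oviduct than in uterus by a log2 fold change of -3.06 in E2 mice and -3.92 in oil mice, as the tissue labels require. Both arrays labelled oil replicate 3 were set apart from their groups. On the uterine one, 177 genes deviated by over 1 log2 unit from what the remaining arrays of the group averaged, and on the oviductal one 302 did, against 8 to 62 on the other arrays. None of the 10 genes was displaced that far (0 of 10 on each array). The summed intensity of 6 corpus luteum markers was 703 to 767 in E2 oviducts, while in oil oviducts it was 751, 694 and 5559, the last on replicate 3. On that array 27 of 31 endothelial identity markers lay below the mean of the other oil oviducts, with a median displacement of -0.16. Its part in the values below was tested only by leaving the array out. Among Y-linked genes, which female tissue lacks, the highest log2 intensity on any array was 7.50 (Sry) and the next highest gene reached 5.36 (Uba1y). Angpt2 lay below 7.50 on every array, as did Tie1 on all oviduct arrays and Flt1 on the E2 oviduct arrays. Single further oviduct arrays of Flt1 (oil replicate 3, 7.48) and Kdr (E2 replicate 3, 7.46, and oil replicate 2, 7.38) also lay below it. The sizes of differences that rest on these values are less certain.

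In the uterus, E2 lowered 9 of the 10 genes, and Angpt2 alone was not called. Across all genes, 14.3% were called lower in E2 uterus and 26.7% were called in either direction. The median log2 fold change was -0.39 for the 10 genes and -0.0007 for all genes. Fold changes are differences of mean log2 intensity, with the standard error (SE) of a limma fit and p-values adjusted by Benjamini-Hochberg over all genes (threshold 0.05). Since whole tissue was measured, fewer endothelial cells, less RNA per cell and a larger share of RNA from other cells cannot be told apart.

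**Figure D1:**
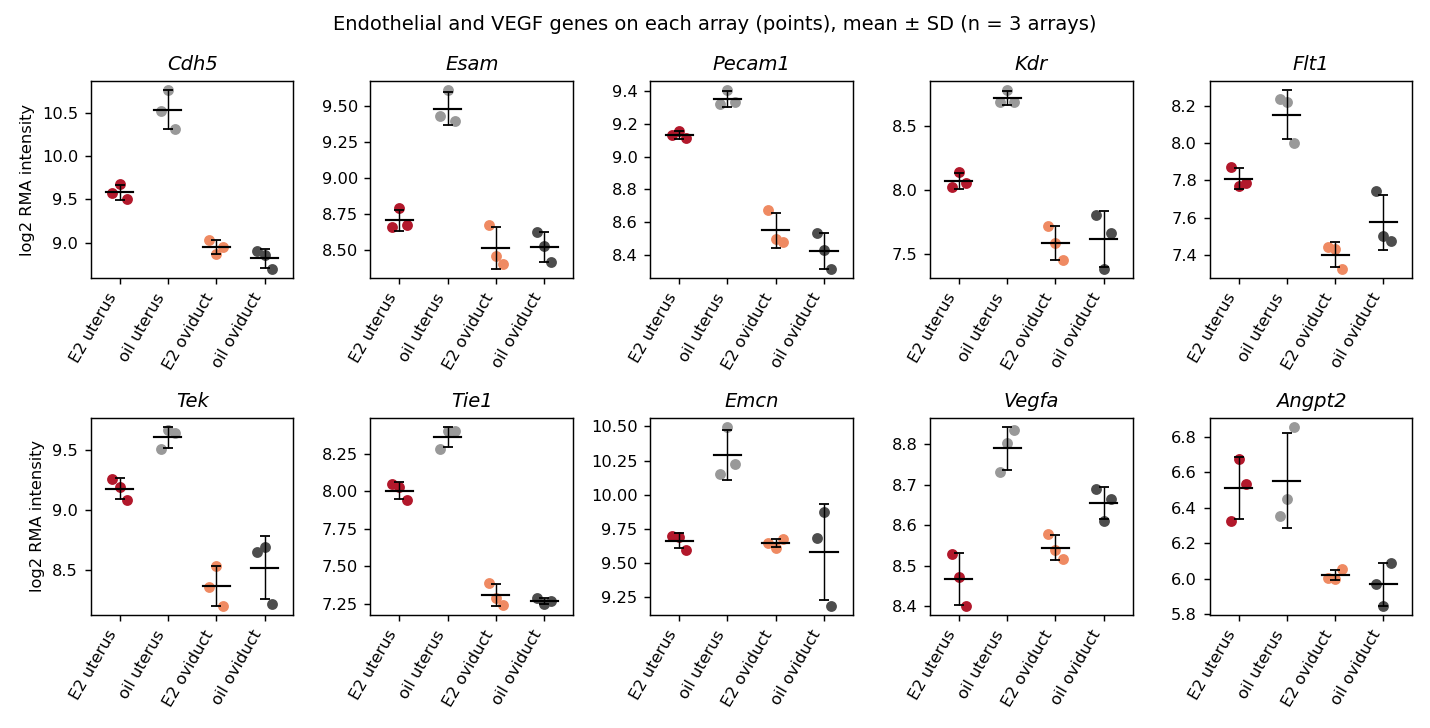
Log2 intensity (vertical axis, a separate scale for each gene) of the 10 genes on each array (points), with mean ± SD (n = 3 arrays per group). For 9 genes the 3 E2 uterus points lie below the 3 oil uterus points, and for Angpt2 they overlap.

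Among the ligands, Vegfa had log2 intensities of 8.53, 8.47 and 8.40 in E2 uterus, against 8.73, 8.80 and 8.84 in oil uterus. Every E2 array lay below every oil array. The log2 fold change was -0.32 (SE 0.06), a 1.25-fold lower level (adjusted p = 0.00198). Angpt2, the context-dependent ligand of TIE2, had 6.33, 6.68 and 6.53 in E2 uterus, against 6.35, 6.45 and 6.86 in oil uterus. The groups overlapped, with 1 high oil array. Its log2 fold change was -0.04 (SE 0.13, 95% interval -0.32 to 0.24, adjusted p = 0.872). Changes within that interval, in either direction, remain compatible with these 3 arrays a group. The highest of the 6 values was that of oil uterus replicate 3, and without that array the log2 fold change was 0.11.

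Kdr, the main signalling receptor for VEGF-A, had log2 intensities of 8.02, 8.14 and 8.05 in E2 uterus, against 8.68, 8.78 and 8.69 in oil uterus. The groups were far apart compared with their spread. Its log2 fold change was -0.64 (SE 0.10, 1.56-fold lower, adjusted p = 0.000749). Flt1, the decoy receptor, had 7.87, 7.77 and 7.79 in E2 uterus, against 8.24, 8.22 and 8.001 in oil uterus. Its groups were separated by a narrower gap, since oil replicate 3 was nearest the E2 arrays. The log2 fold change of Flt1 was -0.34 (SE 0.09, 1.27-fold lower, adjusted p = 0.0134). That call was lost without oil uterus replicate 1 (-0.30), without oil uterus replicate 2 (-0.31) and without E2 uterus replicate 2 (-0.32). Forms of Flt1 or Vegfa made by splicing were not told apart, since each gene has a single value per array.

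Of the receptors for angiopoietins, Tek had log2 intensities of 9.25, 9.19 and 9.08 in E2 uterus, against 9.50, 9.66 and 9.64 in oil uterus. Tie1, its co-receptor, had 8.04, 8.03 and 7.94 in E2 uterus, against 8.28, 8.40 and 8.40 in oil uterus. In both genes all E2 arrays were lower than all oil arrays. Tek differed by a log2 fold change of -0.43 (SE 0.12, 1.34-fold lower, adjusted p = 0.0237), and Tie1 by -0.36 (SE 0.06, 1.28-fold lower, adjusted p = 0.00151). The smaller change had the smaller error, because the Tie1 arrays scattered less over the 4 groups, whose spread the fit pools. The scatter differed most in oil oviduct, with an SD of 0.26 for Tek and 0.02 for Tie1. In oil uterus these were 0.09 and 0.07, and in E2 uterus 0.09 and 0.06. Leaving out oil uterus replicate 2 (-0.40), oil uterus replicate 3 (-0.41), E2 uterus replicate 2 (-0.44) or E2 uterus replicate 3 (-0.38) ended the call of Tek.

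The junction protein VE-cadherin showed the largest change of the 10 genes. Cdh5 had log2 intensities of 9.57, 9.67 and 9.51 in E2 uterus, against 10.53, 10.76 and 10.31 in oil uterus. The groups stood well apart, with the oil arrays scattering more. The 95% interval of its log2 fold change was -1.19 to -0.72, a 1.93-fold lower mean level in E2 uterus (adjusted p = 6.06e-05). Esam, an adhesion molecule of endothelial tight junctions and platelets, had 8.65, 8.79 and 8.67 in E2 uterus, against 9.43, 9.61 and 9.40 in oil uterus. All E2 arrays were again lower, by 1.71-fold on average (95% interval of the log2 fold change -0.98 to -0.58, adjusted p = 8.47e-05).

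Pecam1, an adhesion molecule that platelets and leukocytes carry too, had log2 intensities of 9.13, 9.15 and 9.11 in E2 uterus, against 9.32, 9.40 and 9.33 in oil uterus. The groups did not overlap, but the gap was small. Its log2 fold change was -0.22 (SE 0.07, 1.16-fold lower, adjusted p = 0.0486), just inside the threshold. Leaving out any uterine array ended the call of Pecam1, with log2 fold changes of -0.24 without oil uterus replicate 1, -0.19 without replicate 2 and -0.23 without replicate 3, and of -0.22, -0.23 and -0.21 without E2 uterus replicates 1, 2 and 3 in turn. Omitting replicate 2 of the oil oviducts, or replicates 2 or 3 of the E2 oviducts, likewise ended it, where the fold change stayed -0.22 and only the shared estimate of spread differed. Emcn encodes endomucin, a sialomucin of capillary and venous endothelium, and had 9.70, 9.69 and 9.60 in E2 uterus, against 10.15, 10.50 and 10.23 in oil uterus. All E2 arrays were lower, and they were tighter than the oil arrays. The log2 fold change of Emcn was -0.63 (SE 0.15, 1.54-fold lower, adjusted p = 0.00729).

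All 9 lowered genes were lower on every E2 array than on every oil array of the uterus, a pattern that 21.5% of all genes showed. Changes among the 10 genes were uneven. The intervals of Cdh5 (-1.19 to -0.72) and of Pecam1 (-0.38 to -0.06) did not overlap, and neither did those of Cdh5 and Vegfa (-0.46 to -0.19).

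In the oviduct of the same treatments, 0 of the 10 genes were called by limma, and 0 had an unadjusted p under 0.05. Across all genes, 0.291% were called there, so few calls were made of any kind. An unadjusted p under 0.05 was found for 2094 of all 19938 genes, and 0 of 10 is close to that share. Cdh5 had log2 intensities of 9.03, 8.87 and 8.95 in E2 oviduct, against 8.91, 8.85 and 8.69 in oil oviduct, and the arrays overlapped. Its log2 fold change of 0.13 had a 95% interval of -0.10 to 0.37, which does not reach the size of the uterine change. Esam (-0.01, interval -0.21 to 0.19) and Kdr (-0.03, interval -0.26 to 0.20) also had oviductal intervals that left out their uterine values.

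Vegfa and Flt1 were lower on every E2 oviduct array than on every oil oviduct array, a pattern that 9.07% of all genes showed. Vegfa had 8.58, 8.54 and 8.52 in E2 oviduct, against 8.69, 8.61 and 8.66 in oil oviduct, a log2 fold change of -0.11 (SE 0.06, adjusted p = 0.573). Flt1 had 7.45, 7.44 and 7.32 in E2 oviduct, against 7.74, 7.50 and 7.48 in oil oviduct, a log2 fold change of -0.17 (SE 0.09, adjusted p = 0.545). Neither passed the test, although the arrays did not overlap.

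The remaining 5 genes differed little and in mixed directions in the oviduct. Tek was at -0.15 and Tie1 at 0.04, Pecam1 at 0.13, Emcn at 0.06 and Angpt2 at 0.05 (log2 fold changes, SE 0.06 to 0.15). Emcn scattered most among the oil oviducts, with 9.68, 9.87 and 9.19, against 9.65, 9.61 and 9.68 in E2 oviducts. The low value of Emcn was that of oil oviduct replicate 3, on which the luteal markers were high, and without it the log2 fold change of Emcn was -0.13. Tek was likewise lowest on that array among the oil oviducts, at 8.22, against 8.65 and 8.69 on the others.

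**Figure D2:**
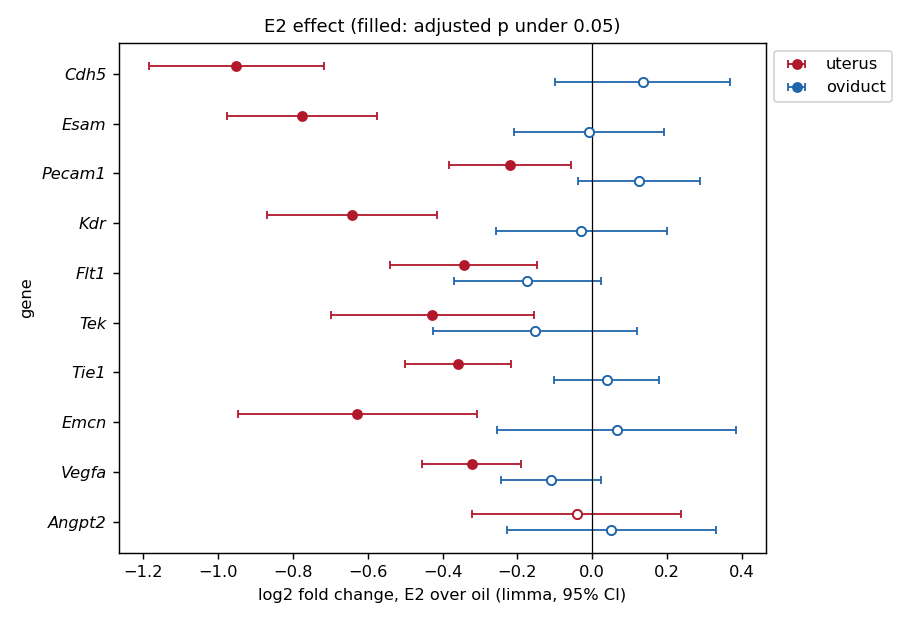
Log2 fold change of E2 over oil (horizontal axis) with 95% intervals of the limma fit for the 10 genes in uterus (upper, red) and oviduct (lower, blue), filled where the adjusted p was under 0.05. In uterus 9 of 10 points are filled and lie left of 0, and in oviduct none is (0 of 10).

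Whether E2 acted differently in the organs was tested directly, as the uterine fold change minus the oviductal one. The difference passed the test for 4 of the 10 genes, all more negative in uterus, against 5.77% of all genes in that direction and 11.5% in either. It was -1.09 (SE 0.15, adjusted p = 0.000836) for Cdh5 and -0.77 (SE 0.13, adjusted p = 0.00289) for Esam. For the receptors Kdr and Tie1 it was -0.61 (SE 0.15, adjusted p = 0.0194) and -0.40 (SE 0.09, adjusted p = 0.0158). The call of Kdr was lost without E2 oviduct replicate 1, where the difference was -0.55 (adjusted p = 0.0523).

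For the other 6 genes the difference was not shown. Emcn (-0.69, SE 0.21, adjusted p = 0.0519) and Pecam1 (-0.34, SE 0.11, adjusted p = 0.0571) lay just outside the threshold. Emcn passed without oil oviduct replicate 2 (-0.84) or oil oviduct replicate 3 (-0.50), and Pecam1 without oil oviduct replicate 1 (-0.40). Over all alternatives, replicate blocks included, the difference passed in 9 of 22 settings for Emcn and in 6 of 22 for Pecam1. Vegfa had a difference of -0.21 (95% interval -0.40 to -0.02, adjusted p = 0.152), Tek -0.27 (-0.66 to 0.11), Flt1 -0.17 (-0.45 to 0.11) and Angpt2 -0.09 (-0.49 to 0.30). Missing the threshold does not show that E2 acted alike in both organs on these genes.

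Both organs were also compared with each other, on the same arrays as above. In oil mice, 9 of the 10 genes were lower in oviduct than in uterus, while 21.5% of all genes were lower and 38.7% were called in either direction. Cdh5 averaged 8.82 ± 0.11 in oil oviduct and 10.53 ± 0.22 in oil uterus (log2 intensity, SD, n = 3 each), a log2 fold change of -1.72 (SE 0.11, 3.29-fold lower, adjusted p = 2.42e-07). Kdr (-1.10), Tie1 (-1.09) and Tek (-1.08) followed with nearly equal log2 fold changes, and then Esam (-0.96), Pecam1 (-0.92), Emcn (-0.71), Angpt2 (-0.59) and Flt1 (-0.58). Vegfa averaged 8.66 ± 0.04 in oil oviduct and 8.79 ± 0.05 in oil uterus, a log2 fold change of -0.13 that did not pass the test (adjusted p = 0.105). All 10 genes, Vegfa included, were lower on every oil oviduct array than on every oil uterus array, as were 26.4% of all genes.

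In E2 mice, 7 of the 10 genes were lower in oviduct than in uterus, against 18.9% of all genes lower and 34.1% called in either direction. They were Tek (-0.81), Tie1 (-0.70), Cdh5 (-0.63), Pecam1 (-0.58), Angpt2 (-0.49), Kdr (-0.48) and Flt1 (-0.41). The call of Angpt2 was lost without E2 uterus replicate 2, at -0.41. Esam averaged 8.51 ± 0.15 in E2 oviduct and 8.71 ± 0.07 in E2 uterus (adjusted p = 0.128), and it passed the test without E2 oviduct replicate 1, at -0.28. Emcn averaged 9.65 ± 0.03 in E2 oviduct and 9.66 ± 0.06 in E2 uterus (adjusted p = 0.945). Vegfa averaged 8.54 ± 0.03 in E2 oviduct and 8.47 ± 0.06 in E2 uterus (adjusted p = 0.381).

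**Figure D3:**
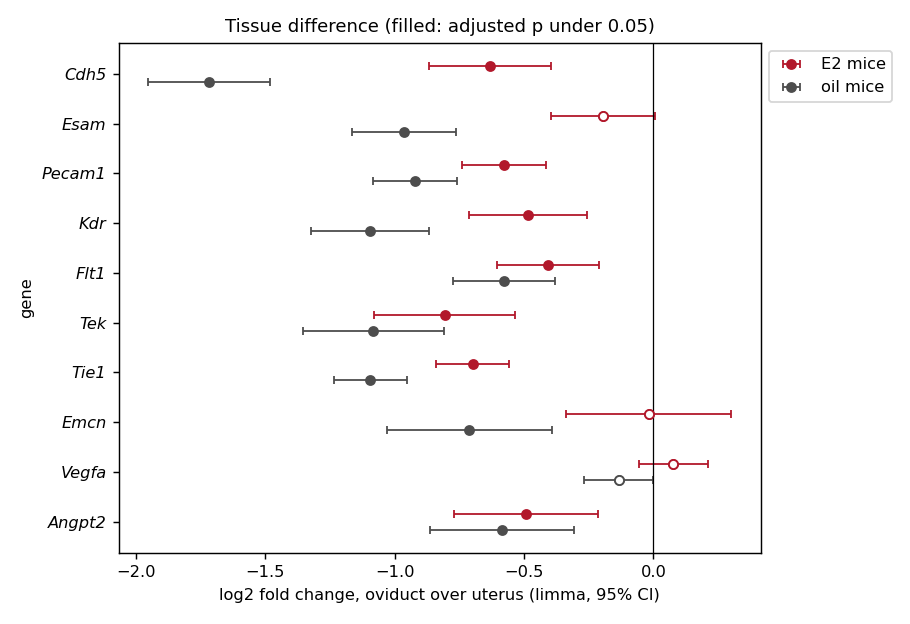
Log2 fold change of oviduct over uterus (horizontal axis) with 95% intervals of the limma fit, in E2 mice (upper, red) and oil mice (lower, grey), filled where the adjusted p was under 0.05. The points of Cdh5 lie at -0.63 in E2 mice and -1.72 in oil mice, and those of Angpt2 at -0.49 and -0.59.

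For each gene, the 4 group means gave an order of levels. Cdh5 was highest in oil uterus, then E2 uterus, and lowest in the oviduct groups, which overlapped. Pecam1, Kdr, Flt1, Tek and Tie1 had the same order of oil uterus above E2 uterus above both oviduct groups, and the test did not tell the oviduct groups apart. Esam and Emcn were highest in oil uterus, and no tested pair of their other 3 groups passed the threshold. Vegfa was highest in oil uterus and oil oviduct, which the test did not tell apart, and lowest in E2 uterus, which it did not tell apart from E2 oviduct. Angpt2 differed by tissue alone among the tested pairs.

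Across the 12 arrays, with each gene centred on its mean in each tissue, the 9 genes that fell in uterus varied together. Pearson r was 0.97 between Cdh5 and Esam, 0.89 between Vegfa and Kdr and 0.56 between Pecam1 and Flt1, the lowest of these pairs. Angpt2 had r between -0.31 and 0.19 with the other 9 genes. These values describe 12 arrays that share the E2 effect, so genes lowered by E2 in uterus correlate by that alone.

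Other genes had patterns close to these. Likeness was taken over arrays that share the E2 effect, so the uterine changes of the genes it picks follow largely from the choice. The 5 genes most like Cdh5 among all genes by the same measure were Vstm4 (r = 0.979), Tshz3 (0.977), Car4 (0.974), Snai1 (0.972) and Mthfd2 (0.972). All 5 fell in E2 uterus, with log2 fold changes between -0.65 for Vstm4 and -1.92 for Car4. Vegfa was closest to Slc19a1 (0.972), Fbl (0.969), Slc9a3r2 (0.968), Strap (0.964) and Kat2a (0.953), which fell by 0.47 to 0.64 on the log2 scale. Angpt2 was closest to Tvp23b (0.907), Sgcb (0.901), Gripap1 (0.895), Nudt10 (0.889) and Frzb (0.889), and 0 of those 5 were called in uterus.

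Of related genes, 4 of 9 in a VEGF list, 1 of 6 angiopoietin partners and 8 of 20 junction partners passed the uterine test. Across all genes, 26.7% were called there. Calls among these related genes went in both directions. The VEGF list held ligands, receptors and co-receptors of that family, and also the semaphorin gene Sema3e and its receptor gene Plxnd1. Of its 9 genes, 3 were higher, Sema3e among them, and 1 was lower in E2 uterus (median log2 fold change 0.08). Nrp1, the co-receptor neuropilin 1, fell by 0.64 on the log2 scale (SE 0.16, adjusted p = 0.0123). Sema3e, a semaphorin that repels sprouting vessels through plexin D1, rose by 1.55 (SE 0.13, adjusted p = 6.75e-06). Flt4, the VEGF-C receptor of lymphatic vessels, rose by 0.35 (SE 0.10, adjusted p = 0.0194), a call lost without oil uterus replicate 1 (0.34), oil uterus replicate 3 (0.32) or E2 uterus replicate 2 (0.26). Pgf, a ligand of FLT1, stood at -0.57 (SE 0.23, adjusted p = 0.09).

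Of 6 angiopoietin and TIE partners, 1 was lower (median -0.14). It was Angpt1, the activating ligand of TIE2, at -0.68 (SE 0.18, adjusted p = 0.0134), and its call was lost without E2 uterus replicate 2 (-0.63). Ptprb, the phosphatase that restrains TIE2, stood at -0.13 (SE 0.08, adjusted p = 0.258). Of 20 junction partners, several of them also part of epithelial junctions, 4 were higher and 4 were lower (median 0.03). Jam2, a junctional adhesion molecule, fell by 1.58 (SE 0.14, adjusted p = 9.72e-06), a larger fold change than that of Cdh5. Rasip1, a regulator of endothelial junctions, fell by 0.71 (SE 0.08), and Heg1, a receptor of the CCM complex, fell by 0.67 (SE 0.09). Jup, plakoglobin, which epithelial junctions hold too, rose by 0.72 (SE 0.07). Cldn5, the claudin of endothelial tight junctions, stood 0.41 higher (SE 0.11, adjusted p = 0.0143), a call lost without oil uterus replicate 1 (0.31) or E2 uterus replicate 1 (0.36) or 2 (0.35).

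Other markers of endothelium fell more often than they rose. Of 31 endothelial identity genes, 17 were lower and 3 were higher in E2 uterus, with a median log2 fold change of -0.27. Adgrl4, an adhesion receptor of vessels, fell by 0.99 (SE 0.12, adjusted p = 0.000116), and Cd93, a lectin-like endothelial receptor, by 0.85 (SE 0.07, adjusted p = 1.06e-05). Sox7, a transcription factor, and Aqp1, a water channel, rose by 1.39 (SE 0.12) and 0.74 (SE 0.13). Each of these 4 genes kept its call in all 23 alternatives. Among 7 genes of venous and activated endothelium, 7 were lower and 0 were higher (median -0.34), led by Aplnr, the apelin receptor, at -0.60 (SE 0.09, adjusted p = 0.000521). Without both arrays of oil replicate 3, 4 of those 7 were called lower. Of 12 Notch and arterial genes, 1 was higher, which was the ligand gene Efnb2 at 1.13 (SE 0.09), and 3 were lower, led by Hey2 at -0.98 (SE 0.25) and Gja4 at -0.58 (SE 0.08). Lymphatic markers went the other way, with 5 of 6 higher and 0 lower (median 0.50, and 4 of 6 higher without oil replicate 3). Reln rose by 0.73 (SE 0.13) and Prox1, the lymphatic identity factor, by 0.64 (SE 0.13).

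**Figure D4:**
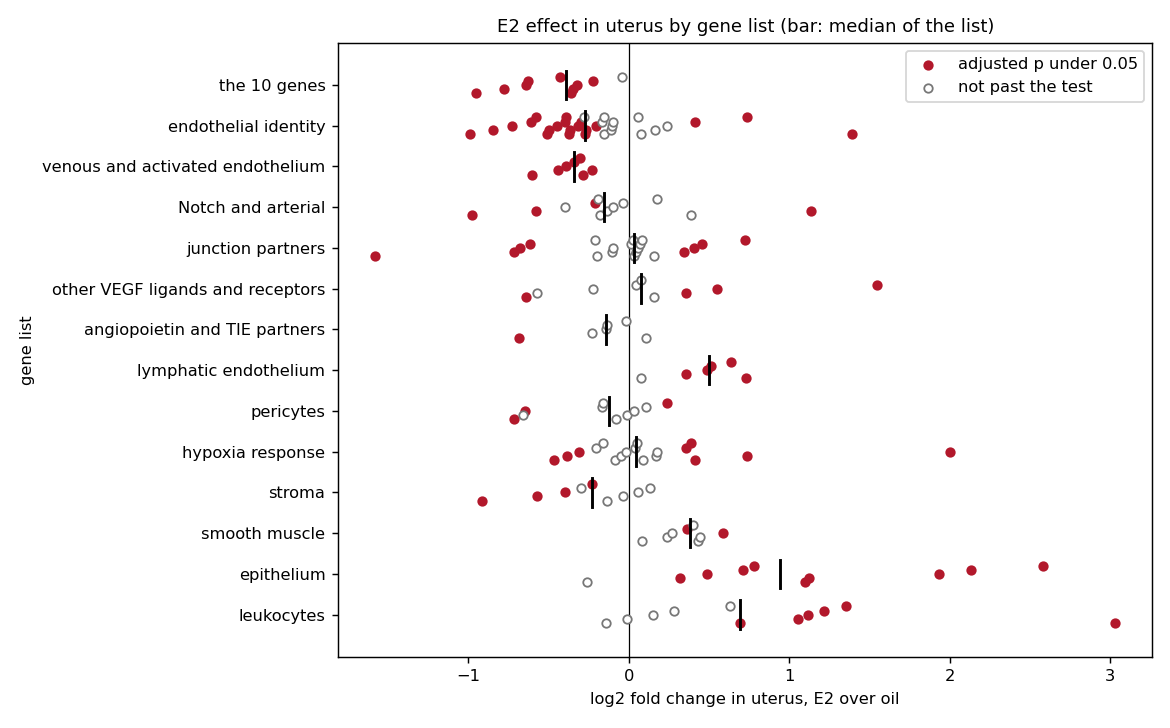
Log2 fold change of E2 over oil in uterus (horizontal axis) for each gene (points) of 14 lists (rows), filled where the adjusted p was under 0.05, with a bar at the median of the list. The median of the 10 genes lies at -0.39, that of endothelial identity at -0.27 and that of lymphatic endothelium at 0.50.

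Hypoxia is a known inducer of Vegfa, and a list of its response genes and regulators, Hif1a among them, was mixed. Of 18 such genes, 5 were higher and 3 were lower in E2 uterus (median 0.05), against 26.7% of all genes called in either direction. Egln3, a prolyl hydroxylase, rose by 2.00 (SE 0.12, adjusted p = 6.56e-07) and Ankrd37 by 0.74 (SE 0.16). Hif1a itself stood at -0.31 (SE 0.10, adjusted p = 0.038), a call that any left-out uterine array ended, at -0.29 to -0.34. Pericytes, the mural cells of small vessels, had 1 of 10 markers higher and 2 lower (median -0.12), or 0 higher and 4 lower without oil replicate 3. Notch3 fell by 0.72 (SE 0.10) and Rgs5 by 0.65 (SE 0.16). Anpep rose by 0.24 (SE 0.06, adjusted p = 0.0165), a call that held in 10 of 12 settings with an array left out. The summed intensity of the 10 pericyte markers overlapped, at 6532 to 6716 in E2 uterus and 6277 to 6763 in oil uterus. Anpep weighed most in that sum, at mean log2 intensities of 11.92 in E2 uterus and 11.69 in oil uterus. The next brightest marker was Pdgfrb in E2 uterus (9.70) and Rgs5 in oil uterus (9.89), so the sum says little about the markers other than Anpep. In sprouting genes 2 of 9 were higher and 1 was lower, among angiogenesis inhibitors 2 of 11 were higher and 3 lower, and in VEGF signal transduction 2 of 14 were higher and 2 lower (5 higher and 1 lower without oil replicate 3).

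Markers of several other cell types moved with the uterine change, and their part in it was not tested. Epithelial markers were higher for 9 of 10 genes, with a summed intensity of 9025 to 10160 in E2 uterus, against 4191 to 4888 in oil uterus. Leukocyte markers were higher for 6 of 11 genes, summing to 3323 to 3728 in E2 uterus, against 1546 to 2018 in oil uterus. Stromal markers were lower for 4 of 9 genes, summing to 19355 to 19772 in E2 uterus, against 21163 to 21579 in oil uterus. Smooth muscle markers were higher for 2 of 8 genes, or 7 of 8 without oil replicate 3, and summed to 20618 to 21280 in E2 uterus, against 14888 to 20543 in oil uterus. Blood cell markers, 1 of 5 higher, overlapped in their sums, at 319 to 347 in E2 uterus and 285 to 338 in oil uterus. Their highest uterine group mean was 6.57 (log2, Pf4 in E2 uterus), which lay below the highest Y-linked signal of 7.50. The 31 endothelial identity markers themselves summed to 9155 to 9494 in E2 uterus, against 10925 to 11644 in oil uterus, and the 6 lymphatic markers to 1661 to 1949 in E2 uterus, against 1273 to 1453 in oil uterus. In the oviduct, 0 of the 31 endothelial identity genes and 0 of the genes in the other vascular lists were called, other than Pgk1 of the hypoxia list, which was higher by 0.41 (SE 0.07, adjusted p = 0.0466), a call that held in 1 of 12 settings with an array left out, at 0.37 to 0.46.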

How the data were processed

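Total RNA of flushed oviducts and uterine horns was hybridised to 12 Affymetrix mouse gene arrays with 1 biotin-labelled sample each. The deposited values are intensities that the authors made with RMA, per the submitters' processing notes, with version and further steps not given in the sources used here. They proved linear, with array maxima of 9102 to 9950, and were log2 transformed here. The design had allowed for either scale. Detection calls and scan dates were not used here.

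Of 35556 probe sets, 21789 had 1 gene symbol in the platform annotation, 1621 had several and 12146 had none. Entrez identifiers of 21698 matched the mouse gene table (GRCm38.p6). The brightest single-symbol probe set stood for a gene, and no intensity filter was set, leaving 19938 genes. A two-sided limma fit (version 3.58.1, run under R 4.3.3, with lmFit and eBayes) took the 12 arrays as 4 groups, adjusted by Benjamini-Hochberg over all genes at 0.05, after the fit was tested on simulated arrays. Precision is limited by the number of arrays, and the smallest p of an exact test with 3 arrays on each side is 0.1.

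The 10 genes, the lists and the tests were chosen with earlier results of these data known. Named genes were the 10, up to 4 per list past the test by size of change, up to 2 as values where none passed, and Angpt1, Nrp1, Flt4, Pgf, Ptprb, Cldn5 and Hif1a. Other uterine calls that a left-out array ended were passed over in the report, which was decided after the values were seen. Ero1a is given for its difference between tissues and Pgk1 for the oviduct, although left-out arrays ended their calls. Likeness is Pearson r over 12 tissue-centred arrays. In the annotation Angpt2 lies within Mcph1, and Cdh5, Kdr, Flt1 and Emcn overlap non-coding RNA genes, so probe sets could read both. Alternatives were other scalings, filters, pseudocounts (32), gene measures, variance models, array weights, replicate blocks, fits of 6 arrays, leaving out each array, and leaving out oil replicate 3 in both tissues. List counts without oil replicate 3 and the settings for genes outside the 10 were added after seeing the data.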

Additional observations from a re-analysis of the deposited data

Results flagged for a closer look

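The E2 effect differed between uterus and oviduct, by a direct test of the difference in limma (uterine minus oviductal log2 fold change), for 22 of the 46 genes named by rule, against 11.5% of all genes. Of the 36 named genes outside the 10, 34 had passed the uterine test, which is part of the difference, so the share is not comparable with that of all genes. Among the 10 genes these were Cdh5 (-1.09), Esam (-0.77), Kdr (-0.61) and Tie1 (-0.40). Of the other genes, the more negative effect in uterus was found for Jam2 (-1.16), Rgs5 (-0.93), Adgrl4 (-0.89), Nrp1 (-0.89), Aplnr (-0.86), Cd93 (-0.80), Heg1 (-0.76), Rasip1 (-0.70), Gja4 (-0.62) and Notch3 (-0.61). The more positive effect in uterus was found for Egln3 (1.74), Sema3e (1.55), Efnb2 (1.17), Sox7 (1.13), Reln (0.67), Jup (0.66), Ero1a (0.54) and Flt4 (0.49). Adjusted p-values over all genes lay between 8.62e-05 for Egln3 and 0.0451 for Flt4. Of the 18 genes outside the 10, 13 passed under every alternative. The exceptions were Nrp1 and Rgs5, past the test in 6 of 12 settings that left out 1 array, Reln in 4 of 12, and Flt4 and Ero1a in 3 of 12. Over all alternatives the difference ranged from -1.06 to -0.64 for Nrp1, from -1.14 to -0.78 for Rgs5, from 0.56 to 0.91 for Reln, from 0.39 to 0.63 for Flt4 and from 0.47 to 0.66 for Ero1a.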

How the results depend on the processing

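In the uterus, Cdh5, Esam, Kdr, Tie1, Emcn and Vegfa passed the test in 23 of 23 alternatives, Flt1 in 20, Tek in 19 and Pecam1 in 12. Of 1135 log2 fold changes of the 10 genes under alternatives, over all comparisons, 1078 kept direction and side of the threshold, 20 fell short of it, 19 newly passed and 18 changed sign. None of the values that changed sign had passed the test in its comparison. The cause was not tested. The count among the 10 genes in uterus was 6 to 9 with an array left out and 8 to 9 otherwise. The oviductal count was 0 throughout.

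Array weights gave 8214 genes past the test in uterus instead of 5332, 264 instead of 58 in oviduct, 4531 instead of 2288 for the difference and 10554 instead of 6793 for oviduct against uterus in E2 mice. In oviduct, 121 genes passed without oil replicate 3 in both tissues, 10 with only the 6 arrays compared and 14 to 67 with an array left out. Sign changes for Angpt2 in uterus were 0.20 with array weights and 0.11 without oil replicate 3 in both tissues, with a range of -0.14 to 0.11 over left-out arrays. For its difference between tissues they were 0.13 with array weights, with a range of -0.19 to 0.0596 over left-out arrays. In oviduct, Esam was at 0.0172 with quantile normalization and Emcn at -0.0213 with array weights and -0.13 without oil replicate 3 in both tissues. Over left-out arrays the oviductal values were -0.0924 to 0.0453 for Esam, -0.15 to 0.0646 for Kdr, -0.0014 to 0.0691 for Tie1, -0.13 to 0.21 for Emcn and -0.0101 to 0.11 for Angpt2.

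Same-numbered arrays of different groups correlated at -0.20 to 0.26 in their deviations from group means. For oviduct against uterus of the same treatment, where a mouse could be shared, the range was 0.0045 to 0.26. These low values do not settle whether same-numbered organs came from the same mouse, and the main fit took all arrays as independent. With a replicate block, Emcn's difference between tissues passed (adjusted p = 0.0425 for a fixed block and 0.0354 for a random one, at -0.69), as did Pecam1's under the random block (0.0425, at -0.34), and Hif1a's uterine call was lost under the fixed block (0.058). A filter at the median intensity left Angpt2 without a value. With 3 arrays a group, and Angpt2 below the highest Y-linked signal, small changes are poorly resolved.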
